A study of Mus musculus with 4 samples.

Results

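Cytosolic ribosomal protein (RP) genes encode the protein parts of the ribosome, and their transcripts were followed here in CD8+ T cells from the blood of patients under PD-1 antibody therapy. Members were taken by gene symbol: RPL or RPS followed by a number and, for some, the letter A, X or L, together with RPLP0, RPLP1, RPLP2 and RPSA. This rule found 83 of 59662 gene entries, of which 50 belong to the large and 33 to the small subunit, with RPL41 present on 2 entries, on chromosomes 12 and 7. FAU and GNB2L1, whose symbols also stand for RP proteins, and RP paralogs named otherwise are not caught by the rule and are given apart. The rule itself uses symbols and no measured value.

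Flow cytometry was used to sort CD11a-high CD8+ cells out of peripheral blood for each library. CD11a, encoded by ITGAL, is an integrin chain that is high on T cells that have met antigen, and PD-1 is an inhibitory receptor on such cells. Each of the 4 groups held 1 library: a responder after therapy, a non-responder after therapy, a responder before therapy and a non-responder before therapy, so no group has a replicate and every ratio compares one library with another. Per the labels, the antibody was given at intervals of 3 weeks. They do not tie the libraries from after and before therapy to the same patients, and do not say which cohort each came from. A difference between times can therefore also be one between patients. The labels' treatment text and group text disagree on whether the before libraries were drawn before therapy, and the group text was followed. A PD-1-positive tag stands in the names of the samples from before therapy and not in those from after therapy, so a difference in the sort cannot be told apart from time.

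Each ribosome carries a copy of nearly all of these proteins, and their mRNAs begin with a terminal oligopyrimidine (TOP) tract that places their translation under control of the kinase mTOR and the binding protein LARP1. Resting T cells hold fewer ribosomes than activated ones, and activation through the T cell receptor raises ribosome production before the cells divide. Some RP genes have tissue-restricted copies, and some RP proteins have roles apart from the ribosome, such as the binding of the p53 regulator MDM2 by RPL5 and RPL11.

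The libraries held 65500644 to 129773591 counts. The sort markers CD3D, CD3E, CD3G, CD8A, CD8B, ITGAL and PTPRC were present in every library, at 150.4 to 3956 CPM (counts relative to the library total, scaled by TMM, edgeR's trimmed mean of M-values). They summed to 8537 CPM for the responder and 5308 CPM for the non-responder after therapy, and to 6192 CPM for the responder and 4794 CPM for the non-responder before therapy. All 7 were higher in the responder after therapy (median log2 ratio 0.53) and 6 of 7 before therapy (median 0.39), so the sort markers were not level with response. Markers of other blood cells were not level between the libraries. The 12 monocyte markers summed to 1881 CPM for the responder and 8816 CPM for the non-responder after therapy, against 111 and 178 CPM for the responder and the non-responder before therapy, with LYZ, S100A9 and S100A8 the most abundant and FCGR1A at 0 in the non-responder library before therapy. The 6 platelet markers summed to 15.9, 166, 26.7 and 62.3 CPM in that order of libraries, and 6 epithelial markers to 1.87, 2.42, 214 and 11.4 CPM, with KRT19 and EPCAM at 0 in both libraries from after therapy. Over the 4 libraries, markers of naive and memory T cells summed to 1071 to 1535 CPM, of B cells to 54.2 to 88.9, of natural killer cells to 217 to 694, of dendritic cells to 2.29 to 59.6 and of red cells to 2.86 to 21.6 CPM. The highest natural killer sum, of the non-responder after therapy, held FCER1G at 277 and TYROBP at 274 CPM. Of the 7 natural killer markers, 4 were higher in the responder after therapy, KLRF1 among them (209 against 103 CPM), and 3 were lower. Mitochondrially encoded genes took 3.37% of counts in the responder and 4.75% in the non-responder library after therapy, and 4.03% in the responder and 5.43% in the non-responder library before therapy. The part that any of these has in the RP results was not tested, and in bulk RNA fewer cells of a type and less RNA per cell cannot be told apart.

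RP transcripts made up a small and graded share of each library. Large-subunit genes took 1.14% of all counts in the responder and 1.38% in the non-responder library after therapy, and 1.54% in the responder and 1.62% in the non-responder library before therapy. Small-subunit genes took 0.877% and 0.998% for the responder and the non-responder after therapy, and 1.20% and 1.29% for the responder and the non-responder before therapy. Counting error is small at these depths: the widest 95% binomial interval (Wilson), that of the large subunit in the non-responder library before therapy, ran from 1.618% to 1.624%. Both subunits thus stood in the same order of libraries, lowest in the responder after therapy and highest in the non-responder before therapy. This order is the reverse of the order of depth: the total counts were 129773591 and 115446087 for the responder and the non-responder after therapy, and 78912300 and 65500644 for the responder and the non-responder before therapy. Depth and RP share cannot be told apart with 4 libraries.

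**Figure D1:**
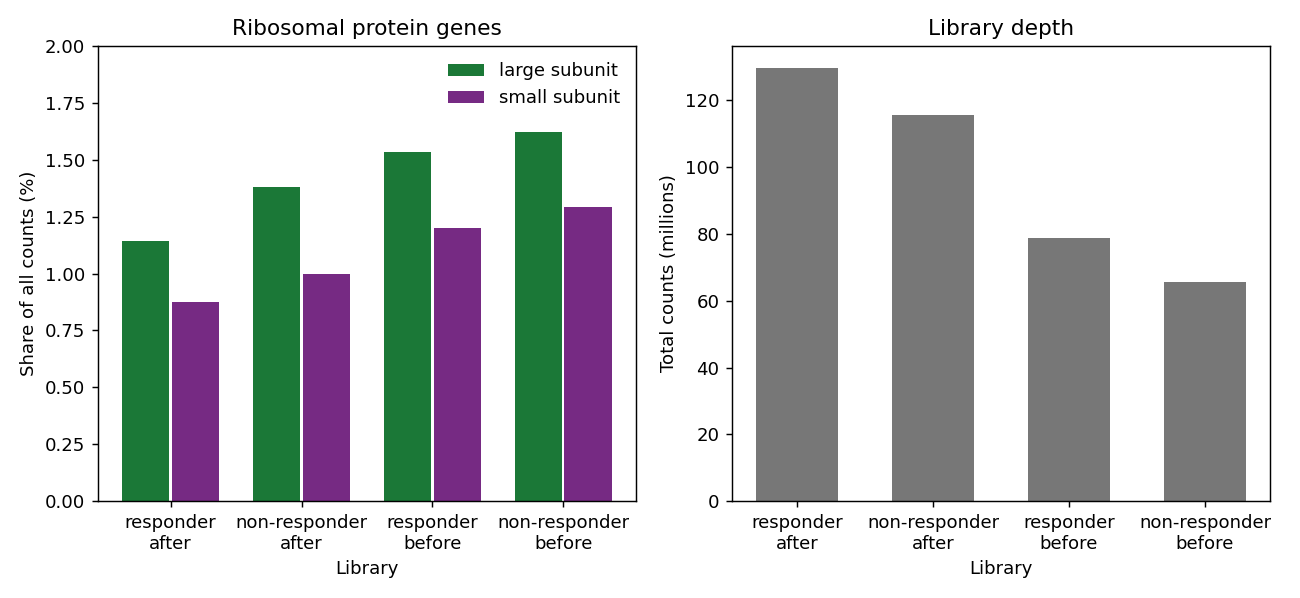
The left panel plots the share of all counts (%) on large- and small-subunit RP genes in each of the 4 libraries, and the right panel the total counts of the same libraries, 1 library per bar. The share is lowest in the responder library after therapy (1.14% large, 0.877% small), which is the deepest, and highest in the non-responder library before therapy (1.62% large, 1.29% small), which is the shallowest.

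Summed over members, the large subunit reached 11754 CPM for the responder and 14293 CPM for the non-responder after therapy, a difference of -17.8%. Before therapy it reached 14624 CPM for the responder and 16004 CPM for the non-responder, a difference of -8.62%. The small subunit summed to 9022 and 10319 CPM for the responder and the non-responder after therapy (-12.6%), and to 11438 and 12769 CPM for the responder and the non-responder before therapy (-10.4%). Responder libraries were thus lower at both times in both subunits, but the responder before therapy stood above the non-responder after therapy. With 2 libraries against 2, the exact two-sided permutation test of the sums gave p = 0.667 for response in each subunit. For time the exact permutation test gave p = 0.333 in each subunit, the smallest value that 2 against 2 allows, with both libraries from after therapy below both from before therapy. The ratio of large- to small-subunit CPM was 1.30 and 1.39 for the responder and the non-responder after therapy and 1.28 and 1.25 for the responder and the non-responder before therapy.

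Of the 83 members, 80 reached 5 CPM in at least 1 library, 48 of the large and 32 of the small subunit. The other 3 were tissue-restricted or little-known copies. RPL3L, which replaces RPL3 in heart and skeletal muscle, had 0 counts in the responder and 25 in the non-responder library after therapy, and 0 in the responder and 2 in the non-responder library before therapy. RPL10L, a testis-enriched copy of RPL10, had 4 counts in the non-responder library after therapy and 0 in the others. RPS10L had 2 and 3 counts for the responder and the non-responder after therapy, and 0 and 4 for the responder and the non-responder before therapy. A count of 0 allows up to 3 counts, which is 0.0238 and 0.0269 CPM for the responder and the non-responder after therapy and 0.0362 and 0.0452 CPM for the responder and the non-responder before therapy.

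Levels between genes were compared as CPM per kilobase of the length that the files give, averaged over the 4 libraries. In the large subunit RPL21 (331 CPM per kilobase), RPL41 on chromosome 12 (301) and RPL3 (266) were highest, and among detected genes RPL39L (7.41), RPL22 (12.4) and RPL28 (13.0) were lowest. In the small subunit RPS27 (688 CPM per kilobase), RPS18 (431) and RPS25 (396) led, and RPS27L (8.33), RPS24 (22) and RPS7 (24.2) closed the order. That length is longer than the coding sequence, at up to 9783 bases for RPS29, a short protein, so genes listed with a long length stand lower on this scale. The order of members was nearly the same in each library: over the 6 pairs of libraries, Pearson's r of log2 CPM across the 80 members was 0.956 to 0.986 and Spearman's rho 0.948 to 0.984, a description across genes that share a library.

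**Figure D2:**
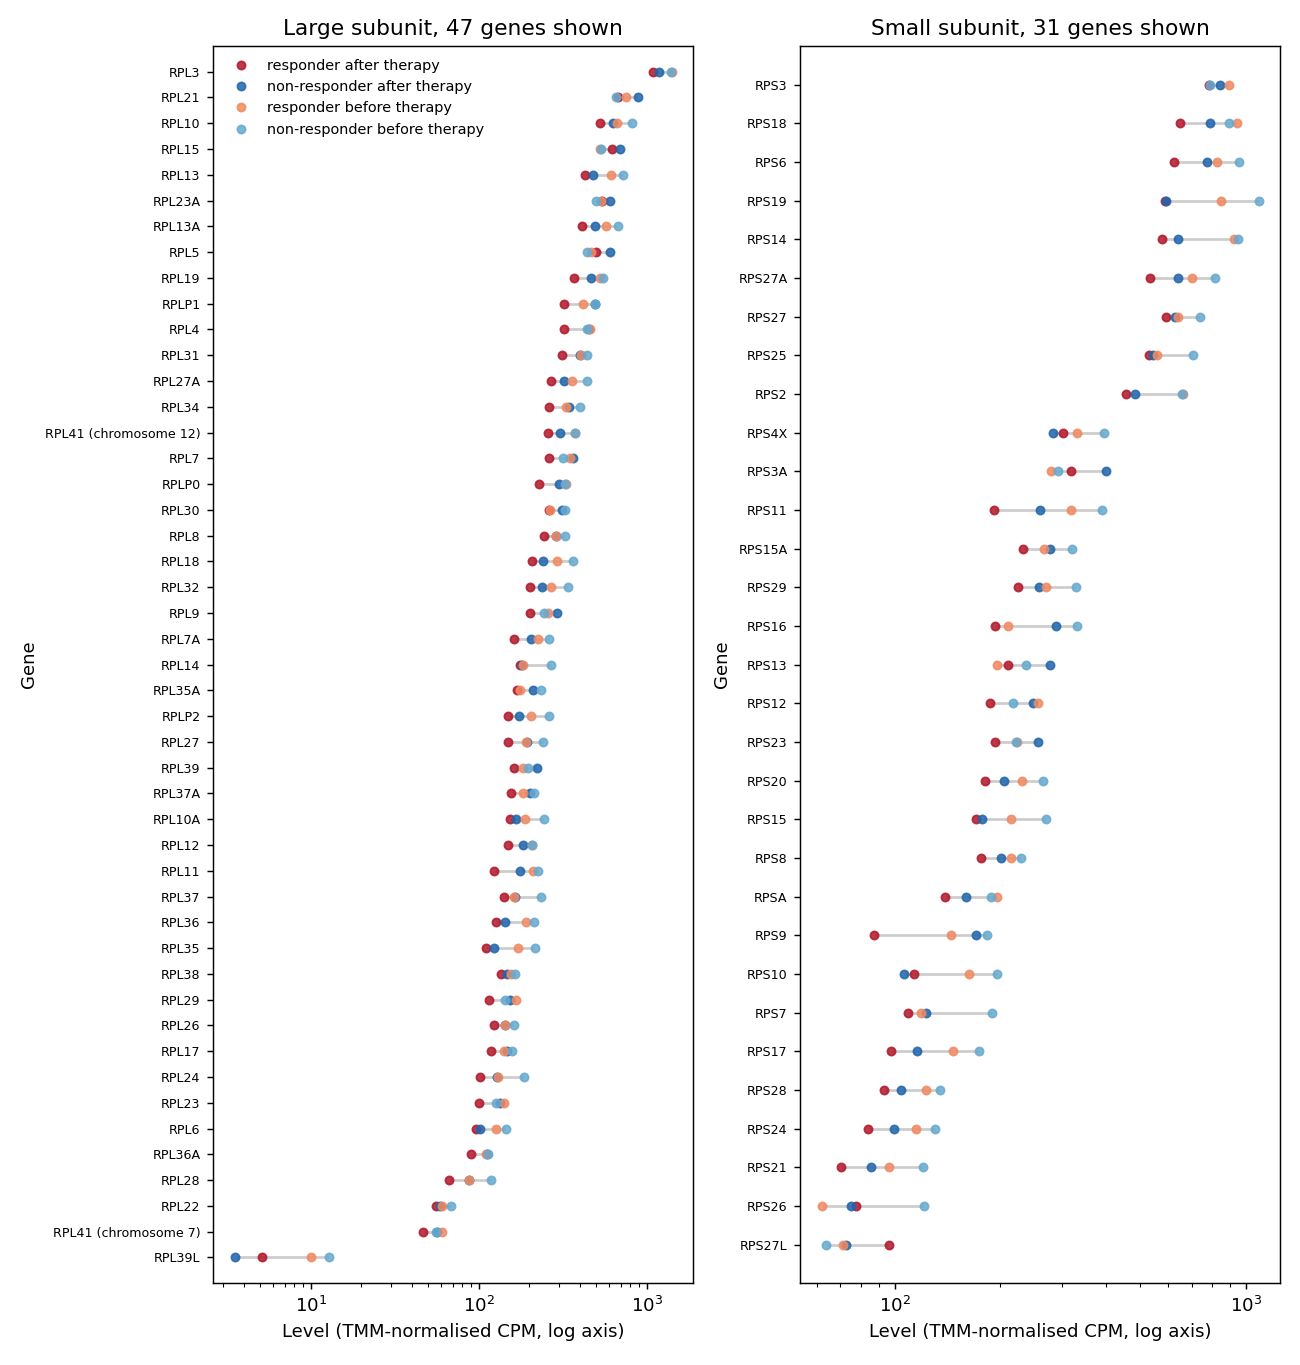
Each row is one of 78 RP genes shown, each point its level (TMM-normalised CPM, log axis) in 1 of the 4 libraries, and the panels hold the large and the small subunit. Within a gene the 4 points lie close together relative to the spread between genes. The responder library after therapy is the lowest of the 4 for 68 of the 80 RP genes at 5 CPM or more, and for 17.8% of all genes.

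After therapy the responder library was below the non-responder library for 74 of the 80 members, 47 of 48 in the large and 27 of 32 in the small subunit, where 43.9% of all genes at 5 CPM or more were lower. The median log2 ratio of responder over non-responder was -0.26 in the large and -0.19 in the small subunit, against 0.08 over all genes and 0.11 over genes at 100 CPM or more. None of the 80 members was 2-fold apart, where 14.7% of all genes and 8.97% of genes at 100 CPM or more were. The members' ratios lay close together, with a standard deviation of 0.18 in the large and 0.24 in the small subunit, against 0.92 over all genes and 0.67 over genes at 100 CPM or more. Counting error was small beside these differences, with a median half-width of the 95% interval of 0.03 in the large and 0.02 in the small subunit.

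Before therapy the same direction held for fewer members, 60 of 80, with 36 of 48 in the large and 24 of 32 in the small subunit. It held for 44.7% of all genes and 49.4% of genes at 100 CPM or more. The median ratio was -0.17 in the large and -0.22 in the small subunit, against 0.10 over all genes and 0.01 over genes at 100 CPM or more. Scaling by DESeq2 size factors put 65 of 80 lower and scaling by library size 57 of 80. With TMM 0 of 80 members were 2-fold apart, where 20.8% of all genes and 13.5% of genes at 100 CPM or more were. With DESeq2 size factors 1 member was, RPS26 (-1.01). In this pair the responder library also held the epithelial markers (214 CPM, against 11.4 CPM in the non-responder library), whose part was not tested.

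The responder was lower at both times for 56 of 80 members, 35 of 48 large and 21 of 32 small, where 26.3% of all genes at 5 CPM or more at both times were. It was higher at both times for 2 of 80, RPS27L among them, where 40.7% of all genes were. Both responder libraries lay below both non-responder libraries for 15 of 80 members (18.75%), close to the 15.7% of all genes. For most of the rest the responder and non-responder levels overlapped. Between the response ratios after and before therapy, Pearson's r was -0.10 and Spearman's rho -0.17 across the 80 members, a description over genes in separate pairs of libraries.

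**Figure D3:**
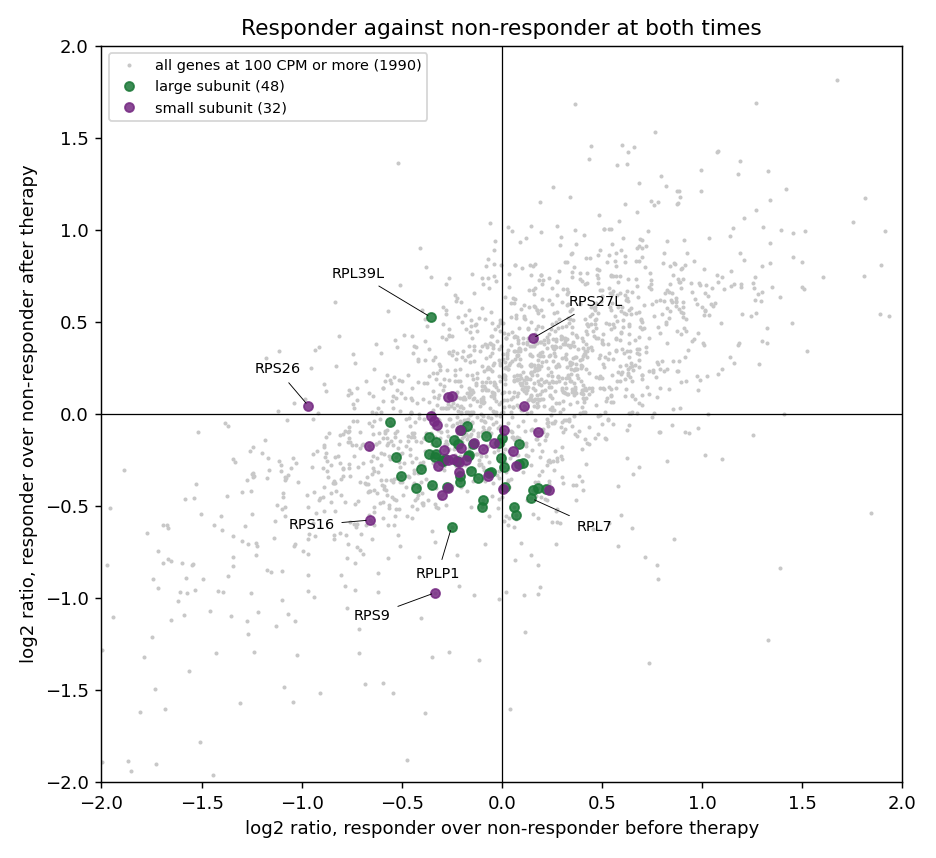
Each point is a gene, with the log2 ratio of responder over non-responder before therapy and after therapy on the axes, RP genes of either subunit in colour and 1990 genes at 100 CPM or more in grey, of which 30 lie outside the axes. The RP genes form a tight group, 56 of 80 of them with both ratios below 0, where 26.3% of all genes at 5 CPM or more have both below 0. At 100 CPM or more, 52 of 72 RP genes and 31.3% of all genes have both below 0.

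Among members lower in the responder at both times, RPS16, a small-subunit protein gene (chromosome 19, 39433207 to 39435948 in hg38, the build of all coordinates given), had the largest ratio at its weaker time. RPS16 stood at 193 CPM for the responder against 287 CPM for the non-responder after therapy, and 209.7 CPM for the responder against 331 CPM for the non-responder before. Its levels in both responder libraries were below those in both non-responder libraries, with log2 ratios of -0.58 after (95% counting interval -0.60 to -0.55) and -0.66 before therapy (-0.69 to -0.63). RPS9, also of the small subunit (chromosome 19, 54200742 to 54249003), stood at 87.2 CPM for the responder against 171 CPM for the non-responder after therapy, and 145 CPM for the responder against 183 CPM for the non-responder before. Its responder library after therapy was far below the other 3, with log2 ratios of -0.97 after and -0.33 before therapy. In the large subunit, RPL28 (chromosome 19, 55385345 to 55403250) had 66.2 CPM for the responder against 87.3 CPM for the non-responder after therapy, and 87.7 CPM for the responder against 118 CPM for the non-responder before. The non-responder after and the responder before therapy were nearly level, and there the groups overlapped. Its log2 ratios were -0.40 after and -0.43 before therapy.

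RPL24, RPL27 and RPL35A complete the 6 members with the largest ratio at their weaker time, and all are large-subunit proteins. RPL24, which links the large to the small subunit, had log2 ratios of -0.33 after and -0.50 before therapy. RPL27 had -0.38 after and -0.35 before therapy, and RPL35A, one of the genes mutated in Diamond-Blackfan anaemia, had -0.30 after and -0.40 before therapy.

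RPS27L stood against the direction of the family. RPS27L, a copy of RPS27 that is known as a p53 target gene (chromosome 15, 63125872 to 63158021), had 96.5 CPM for the responder against 72.6 CPM for the non-responder after therapy, and 71.1 CPM for the responder against 63.9 CPM for the non-responder before. Both libraries from the responder were above the non-responder library of the same time, with log2 ratios of 0.41 (0.37 to 0.45) and 0.15 (0.10 to 0.21). RPS27 itself, far more abundant, had 593 CPM for the responder against 629 CPM for the non-responder after therapy, and 642 CPM for the responder against 741 CPM for the non-responder before, and log2 ratios of -0.09 after and -0.21 before therapy, so that the copies differed in direction.

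The acidic stalk of the large subunit, which recruits the elongation factors, is made of RPLP0, RPLP1 and RPLP2. RPLP1 had the lowest ratio of the large subunit after therapy (chromosome 15, 69452784 to 69456194) and stood at 322 CPM for the responder against 493 CPM for the non-responder after therapy, and 417 CPM for the responder against 496 CPM for the non-responder before. Its log2 ratios were -0.61 after and -0.25 before therapy. RPLP0, the base of the stalk, had 229.7 CPM for the responder against 302 CPM for the non-responder after therapy, and 331 CPM for the responder against 327 CPM for the non-responder before, with log2 ratios of -0.40 after and 0.02 before therapy, the second with a counting interval that spans 0 (-0.01 to 0.04). RPLP2 had log2 ratios of -0.22 after and -0.37 before therapy.

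RPL5 and RPL11, which form a particle with 5S ribosomal RNA and bind MDM2 when assembly fails, differed. RPL11 stood at 124 CPM for the responder against 176 CPM for the non-responder after therapy, and 211 CPM for the responder against 226 CPM for the non-responder before. It was lower after therapy in both pairs of libraries, with log2 ratios of after over before of -0.77 in responders and -0.36 in non-responders. RPL5 stood at 499 CPM for the responder against 603 CPM for the non-responder after therapy, and 469 CPM for the responder against 443 CPM for the non-responder before, and was higher after therapy, at 0.09 in responders and 0.45 in non-responders, although the small difference in responders turned to -0.02 when libraries were scaled by size alone. The members of this particle thus differed in direction between times.

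Other members with known roles stayed within the range of the family. RPS6, the ribosomal substrate of the S6 kinases downstream of mTOR, stood at 622 CPM for the responder against 775 CPM for the non-responder after therapy, and 825 CPM for the responder against 957 CPM for the non-responder before. It was lower in the responder at both times (log2 -0.32 after and -0.21 before therapy). RPL13A, known for a role in interferon-dependent translational silencing, had ratios of -0.25 after and -0.22 before therapy, and RPS3, which also acts in DNA repair and NF-kappaB signalling, had -0.10 after and 0.18 before therapy. RPS19, the gene most often mutated in Diamond-Blackfan anaemia, had -0.01 after and -0.35 before therapy. RPS27A, made as a fusion with ubiquitin, had -0.26 after and -0.22 before therapy. RPL22, whose loss in mice blocks development of alpha-beta T cells, had -0.07 after and -0.18 before therapy. RPL10A and RPL38, studied in mice for translation of selected mRNAs, had -0.13 after and -0.36 before therapy, and -0.12 after and -0.08 before therapy. Of these 8 genes, RPS3 before therapy was the one ratio above 0. The 8 are only part of the members with known roles. Among the rest, ratios above 0 after therapy included RPL39L (0.53), RPS27L and RPS4X (0.10). Before therapy they included RPL5 (0.08), the RPL41 entry on chromosome 7 (0.10), RPLP0 (0.02), RPL3 (0.003), RPSA and RPS27L. RPL10 had both ratios below 0 (-0.26 after and -0.30 before therapy). Over all 80 members, 74 ratios were below 0 after and 60 before therapy, so the tally of the 8 does not set known roles apart.

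After against before therapy, RP genes were lower in both response groups. In responders 73 of 80 members were lower after therapy, 45 of 48 large and 28 of 32 small, against 45.0% of all genes, and in non-responders 63 of 80, 37 large and 26 small, against 44.7% of all genes. The median log2 ratio of after over before in responders was -0.37 in each subunit, against 0.08 over all genes and 0.13 over genes at 100 CPM or more. In non-responders it was -0.22 in the large and -0.36 in the small subunit, against 0.10 and 0.03. The summed large subunit differed by -19.6% in responders and -10.7% in non-responders, and the summed small subunit by -21.1% and -19.2% in responders and non-responders. In responders 0 of 80 members were 2-fold apart (1 of 80 with libraries scaled by size alone), where 13.3% of all genes were. In non-responders 1 of 80 was, RPL39L, where 23.9% of all genes were. Among genes at 100 CPM or more the shares were 9.66% in responders and 13.9% in non-responders. Monocyte markers were higher after therapy in both response groups (1881 against 111 CPM after and before therapy in responders, 8816 against 178 CPM in non-responders), and epithelial markers were lower in responders (1.87 against 214 CPM). Their part in the RP difference was not tested.

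Both libraries from after therapy were below both from before therapy for 49 of 80 members, 28 large and 21 small, where 18.5% of all genes were. The complete order of libraries seen in the sums, from the responder after therapy through the non-responder after and the responder before to the non-responder before therapy, held for 39 of 80 members, against 5.82% of all genes. The responder library after therapy was the lowest for 68 of 80 (17.8% of all genes), and the non-responder library before therapy was the highest for 56 of 80 (24.6% of all genes). The pairs after therapy and before therapy share no library, but each comparison of times shares its libraries with those of response, so these counts restate the same 4 columns.

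**Figure D4:**
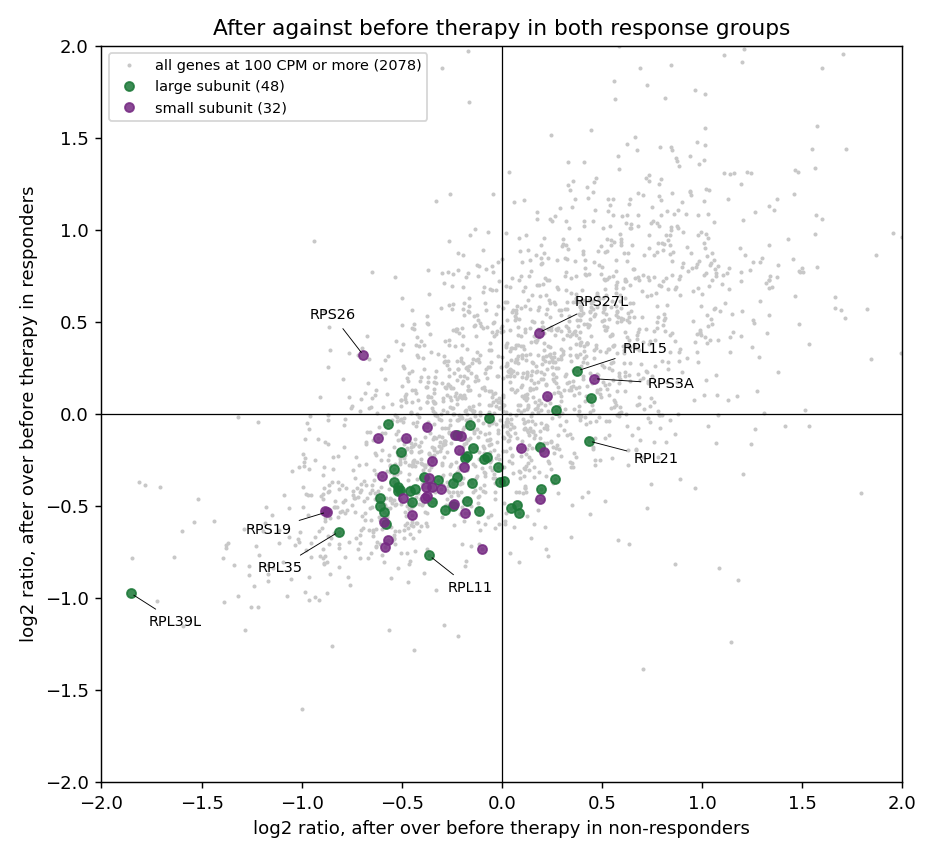
Each point is a gene, with the log2 ratios of after over before therapy in responders and in non-responders on the axes, RP genes of either subunit in colour and 2078 genes at 100 CPM or more in grey, of which 27 lie outside the axes. Of the 80 RP genes, 62 have both ratios below 0, where 29.1% of all genes at 5 CPM or more do. At 100 CPM or more, 58 of 73 RP genes and 31.4% of all genes do.

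After RPL39L, RPS10 and RPS19 had the lowest time ratios in non-responders. RPS19 stood at 589 CPM after therapy, against 851 CPM before therapy, in the responder libraries, and 593 against 1087 CPM after and before therapy in the non-responder libraries. Both of its libraries from after therapy were below those from before therapy, with log2 ratios of -0.53 in responders and -0.87 in non-responders. RPS10 had log2 ratios of -0.52 in responders and -0.88 in non-responders, and the overlapping read-through entry RPS10-NUDT3 held more counts than RPS10 in each library. RPS9 had -0.73 in responders and -0.10 in non-responders. RPL39L, a copy of RPL39 that is high in testis (chromosome 3, 187120948 to 187180908), was the lowest detected member, at 5.10 CPM after therapy, against 10.01 CPM before therapy, in the responder libraries, and 3.54 against 12.8 CPM after and before therapy in the non-responder libraries, with log2 ratios of -0.97 (-1.12 to -0.82) in responders and -1.85 (-2.03 to -1.68) in non-responders. RPL39 itself had -0.18 in responders and 0.19 in non-responders.

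Against the family's direction, 7 of 80 members stood higher after therapy in responders and 17 of 80 in non-responders. RPL15 stood at 619 CPM after therapy, against 526 CPM before therapy, in the responder libraries, and 691 against 532 CPM after and before therapy in the non-responder libraries, with log2 ratios of 0.23 in responders and 0.38 in non-responders. RPS3A, a small-subunit protein with many processed copies, had 0.19 in responders and 0.46 in non-responders. RPL21 was higher after therapy in non-responders alone (-0.15 in responders and 0.43 in non-responders). RPS27L had 0.44 in responders and 0.18 in non-responders, and its 4 levels ran opposite to the order of the family.

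RPS26, a small-subunit protein at the mRNA exit site (chromosome 12, 56041853 to 56044675), had the widest gap between the pairs. It stood at 77.5 CPM for the responder against 75.2 CPM for the non-responder after therapy, and 62.1 CPM for the responder against 121 CPM for the non-responder before. The non-responder library before therapy was the one high library, and the other 3 lay close together. Its log2 ratio of responder over non-responder was 0.04 (0.00 to 0.09) after therapy and -0.97 (-1.02 to -0.92) before therapy. RPS7 stood at 109 CPM for the responder against 123 CPM for the non-responder after therapy, and 119 CPM for the responder against 189 CPM for the non-responder before, the non-responder library before therapy again being the high one. Its log2 ratios were -0.17 after and -0.66 before therapy.

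The 12 members on chromosome 19, a group picked after the values were seen, were all lower after therapy in both response groups. So were 62 of all 80 members and 29.1% of all genes. All 4 members on chromosome 2 and all 4 on chromosome 9 were lower in both response groups too. Other genes of chromosome 19 are not compared here. The median log2 ratios of the 12 were -0.46 in responders and -0.48 in non-responders, against -0.35 and -0.23 over the 68 members elsewhere. For response the same 12 had medians of -0.19 after and -0.31 before therapy, against -0.25 and -0.18 elsewhere.

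Over all 4 libraries, an additive model of response and time was fitted with edgeR (quasi-likelihood, two-sided tests, Benjamini-Hochberg adjustment over 24123 genes). It called 0 of 80 members for response and 0.0% of all genes, and likewise 0 of 80 and 0.0% for time. The members' lowest adjusted p in edgeR's test was 0.558 for response and 0.408 for time. The fitted log2 ratio of responder over non-responder was below 0 for 76 of 80 members, with a median of -0.22, and that of after over before therapy for 73 of 80, with a median of -0.34. Over all 24123 genes the fitted ratio was below 0 for 47.7% for response, with a median of 0.04, and for 48.5% for time, with a median of 0.03. At an unadjusted p under 0.05 the edgeR fit held 2 members for response, RPS16 (-0.64 ± 0.17, fitted log2 ratio and its SE) and RPS9 (-0.67 ± 0.23), 2.5% of members against 8.78% of all genes. For time the fit of all 4 libraries held 15 members (18.75%), against 11.4% of all genes. DESeq2 called 4.62% of genes for response and 7.15% for time, and 0 of the 80 members for either, with lowest adjusted p of 0.144 for response and 0.0756 for time. The limma-voom fit called 0.0% of all genes and 0 members for response. The 1 residual degree of freedom is the difference between the response ratios after and before therapy, which the additive fit takes as error. A member whose response ratio differed between times thus has that difference counted as noise. The fits also pool spread across genes, so a p-value does not reflect the spread of that gene alone. With 1 library per group, no p-value here measures the spread between patients within a group.

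Genes that work with RP genes were compared in the same way. Counts of their lists at both times stand against the background at both times, 26.3% of all genes with the responder below and 40.7% with it above, and their median response ratios against 0.08 after and 0.10 before therapy over all genes. No difference between lists was tested. FAU, which encodes RPS30 fused to a ubiquitin-like protein, stood at 116 CPM for the responder against 163 CPM for the non-responder after therapy, and 179 CPM for the responder against 235 CPM for the non-responder before, with log2 ratios of -0.49 after and -0.39 before therapy. GNB2L1, the older symbol of RACK1, had -0.20 after and 0.20 before therapy. RSL24D1, a ribosome assembly factor related to RPL24, had -0.82 after and -1.55 before therapy. FAU stood in the same order of libraries as the RP sums. Of the 10 ribosome-related genes outside the symbol rule, 6 were lower and 1 was higher in the responder at both times.

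A list of 20 other RNAs known to carry a TOP tract, most of them of the translation machinery, had median response ratios of -0.35 after and -0.14 before therapy, with 15 lower and 1 higher at both times. Their median time ratios were 0.01 in responders and 0.05 in non-responders, against 0.08 and 0.10 over all genes. PABPC1, the poly(A)-binding protein, had response ratios of -0.50 after and -0.45 before therapy, but was higher after therapy at 0.53 in responders and 0.58 in non-responders. EEF1A1, the elongation factor that brings tRNA to the ribosome, stood at 1817 CPM for the responder against 2248 CPM for the non-responder after therapy, and 1844 CPM for the responder against 1891 CPM for the non-responder before. HNRNPA1, an RNA-binding protein of splicing, had -0.44 after and -0.80 before therapy, and GAS5, a noncoding TOP transcript that hosts small nucleolar RNAs, had -0.72 after and -0.72 before therapy.

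Host genes of small nucleolar RNAs, whose spliced RNAs are degraded when ribosomes scan them, had the lowest median response ratios among the lists of genes that work with RP genes. Their median log2 ratio over 9 genes was -0.60 after and -0.66 before therapy, with 7 of 9 lower and 1 higher at both times. SNHG5 stood at 53.3 CPM for the responder against 107 CPM for the non-responder after therapy, and 75.5 CPM for the responder against 162 CPM for the non-responder before, and SNHG1 at 52.4 CPM for the responder against 129.8 CPM for the non-responder after therapy, and 51.3 CPM for the responder against 104 CPM for the non-responder before. For both of these genes, named for their large ratios, each responder library was below both non-responder libraries, as for 15.7% of all genes. SNHG12 was higher in the responder at both times (0.06 after and 0.70 before therapy). SNHG7 was higher after therapy alone (0.67 after and -1.06 before therapy). The time medians of the 9 host genes were 0.03 in responders and -0.12 in non-responders.

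The mitochondrial ribosome translates mitochondrially encoded mRNAs. Its protein genes had 76 entries, with MRPL23 and MRPS17 entered more than once. Over 74 tested entries the median response ratios were 0.18 after and 0.30 before therapy, against 0.08 and 0.10 over all genes. Of these entries, 49 were higher and 10 lower at both times. After therapy they were lower, as RP genes were, with median time ratios of -0.23 in responders and -0.17 in non-responders. Factors of ribosome assembly, 44 genes, had response medians of 0.16 and 0.14 after and before therapy, 29 translation initiation factors had 0.05 and -0.11, and the mTOR and LARP1 control genes, 15 tested of 16, had 0.07 and 0.14. The edgeR test called none of the genes of these lists at an adjusted p of 0.05, as it called none of the 24123 genes.

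**Figure D5:**
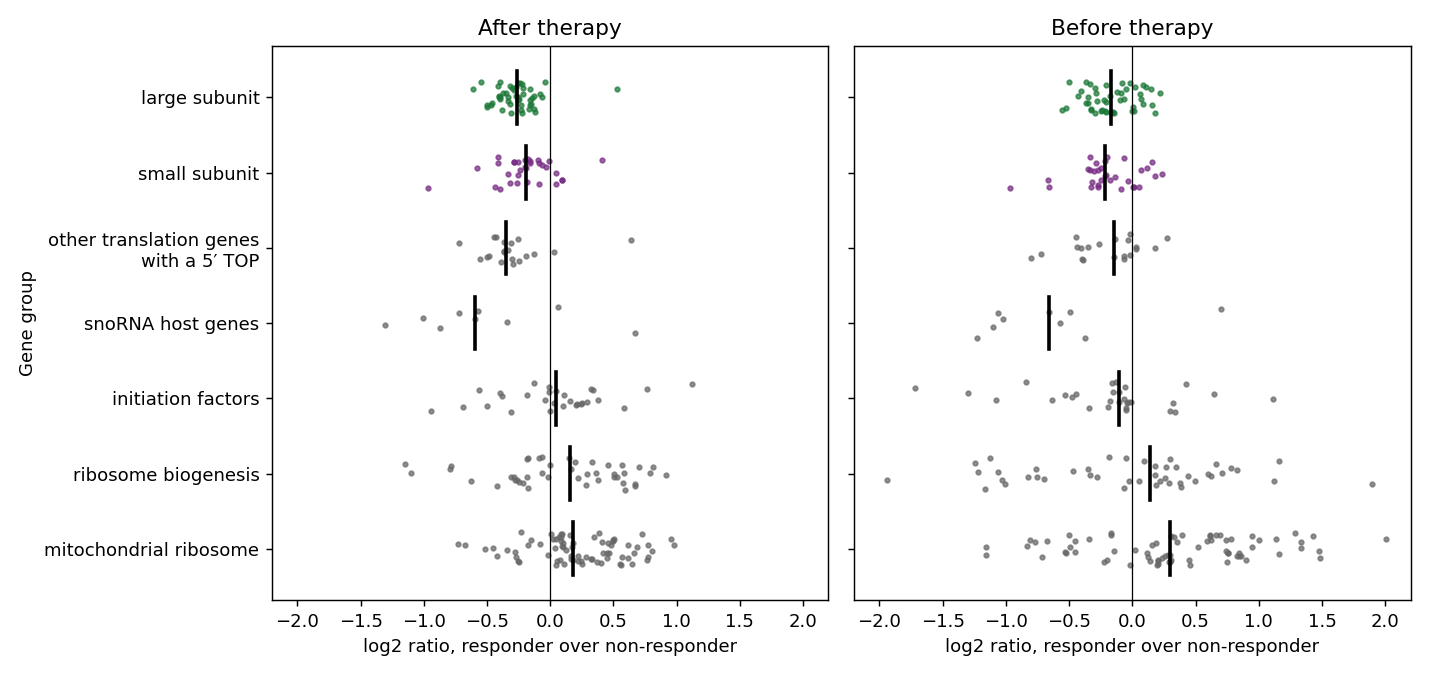
Each point is a gene and each row a gene list, with the log2 ratio of responder over non-responder on the horizontal axis, after therapy in one panel and before therapy in the other, and the median of each list marked. RP lists have medians of -0.26 and -0.19 (large and small) after therapy and -0.17 and -0.22 before therapy, and the mitochondrial ribosome has 0.18 and 0.30.

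Reads of RP genes can also be counted on their processed copies. The files hold 863 pseudogene entries named after 75 RP genes, 585 with a count, which together held 2.77% of the members' counts in the responder and 2.74% in the non-responder library after therapy, and 2.88% in the responder and 2.53% in the non-responder library before therapy. Genes with a high share were RPS2 (19.5% of its own counts), RPSA (19.2%), RPL6 (15.4%) and RPL15 (11.5%). For RPL6, adding its copies gave log2 ratios of -0.10 after and -0.19 before therapy, against -0.08 and -0.20 for the gene alone. The values of these genes are less certain than those of members with few copies. RPL36A and RPL17 overlap the read-through entries RPL36A-HNRNPH2 and RPL17-C18orf32, which held more counts than the genes in each library. RPL17-C18orf32 had log2 ratios of responder over non-responder of -0.13 after and 0.05 before therapy, against -0.31 and -0.15 for RPL17, and of after over before therapy of 0.13 in responders and 0.31 in non-responders, against -0.24 and -0.09. RPL36A-HNRNPH2 had response ratios of -0.26 after and 0.01 before therapy, against -0.32 and -0.05 for RPL36A. The sign for RPL17 thus turned with the entry read in 3 of the 4 pairs. That for RPL36A turned, by small ratios, in the response pair before therapy. It also turned in the time pair of non-responders, where RPL36A-HNRNPH2 had 0.05 and RPL36A was below 0. How reads were divided between genes and read-through entries is not given in the sources used here.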

How the data were processed

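Per the labels' protocols, cDNA was amplified from 1 ng of RNA of sorted CD8+ T cells with a SMARTer Ultra Low kit, and paired ends were read on an Illumina HiSeq. The submitters' processing notes name bcl2fastq 1.8.4 for base calls, and TopHat2 and hg38 with no further version. How reads were counted, with which strand setting and annotation, is not given in the sources used here. The deposited files hold raw counts per gene, per the file headers. Their organism label names mouse, but the genes and build are human and the samples are described as patients. Of 64253 entries, 4591 on contigs, on chromosome Y or informative of sex were left out, and totals keep all counts. Contigs named after a chromosome were not all removed: an MRPL23 entry on a random contig of chromosome 11 stayed in. Without molecular identifiers, intervals and floors cover counting error only.

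Levels are TMM-normalised CPM. Ratios of 2 libraries use a prior count of 0.5 with exact conditional binomial 95% intervals, over genes at 5 CPM or more in either library. The test was edgeR 4.0.16 in R 4.3.3 (filterByExpr, response plus time, 1 residual degree of freedom, threshold 0.05, common biological coefficient of variation 0.66). DESeq2 1.42.0 and limma 3.58.1 were alternatives, as were other scalings, filters, added pseudogene counts and left-out libraries. The SE of a fitted ratio was taken from the ratio and its F statistic.

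The members and gene lists were chosen with earlier results of these data known. Members named are those highest or lowest per kilobase, with the largest ratios in a pair or at both times, 2-fold apart, under 5 CPM, with most pseudogene counts, or with known roles. Genes named from the lists of genes that work with RP genes are among those with the largest absolute ratios. FAU, GNB2L1, PABPC1, EEF1A1 and SNHG12 and, as a group, the genes on chromosome 19 were named outside these rules, after values were seen. No sequences are shown, and some genes that the rule takes stay unnamed and are not reported here.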

Additional observations from a re-analysis of the deposited data

Results flagged for a closer look

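For 17 of the 80 members the responder and non-responder libraries stood in opposite directions after and before therapy, with both 95% counting intervals off 0. That is 21.25% of members, and the same held for 24.1% of the 11568 genes at 5 CPM or more at both times, so the share of members is near the background. With DESeq2 size factors 12 members stood in opposite directions in this way, all among the 17, and with library size alone 24 did, the 17 among them. Each of these rests on 1 library per group, so the difference between the pairs was not tested. The value given is the log2 ratio of responder over non-responder after therapy minus that before therapy. In 13 of the 17 it was below 0 (9 of 12 with DESeq2 size factors and 20 of 24 with library size alone, against 47.5% of such genes over all with TMM), that is, the responder was lower after therapy and higher before therapy. These were RPS12 (-0.65), RPL29 (-0.63), RPL9 (-0.62), RPL7 (-0.60), RPL21 (-0.58), RPL23 (-0.57), RPL4 (-0.56), the RPL41 entry on chromosome 7 (-0.37), RPL5 (-0.36), RPS18 (-0.35), RPS3 (-0.28), RPSA (-0.25) and RPL23A (-0.25). In the other 4 it was above 0: RPS26 (1.01), RPL39L (0.88), RPS10 (0.36) and RPS4X (0.35). RPS12 stood at 186 CPM for the responder against 248 CPM for the non-responder after therapy, and 256 CPM for the responder against 217 CPM for the non-responder before. RPL9 stood at 201 CPM for the responder against 294 CPM for the non-responder after therapy, and 257 CPM for the responder against 245 CPM for the non-responder before. In both genes the responder library after therapy was the lowest of the 4.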

How the results depend on the processing

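All 8 subunit medians were negative under every setting tried, and the settings moved their size. With DESeq2 size factors the median response ratio before therapy was -0.22 in the large and -0.26 in the small subunit. With library size alone it was -0.12 in the large and -0.16 in the small subunit, and the time medians were -0.48 in each subunit in responders and -0.29 (large) and -0.42 (small) in non-responders. Library size alone moved the median of all genes after over before therapy in responders to -0.03, from 0.08 with TMM. Centring on the median of genes at 100 CPM or more, a setting chosen after seeing the data, gave -0.38 (large) and -0.31 (small) for response after therapy, -0.50 in each subunit for time in responders, and -0.25 (large) and -0.39 (small) for time in non-responders. The edgeR fits called 0 genes, and so 0 members, under each alternative, and leaving out each library in turn gave a range of 0 to 0. With 1 residual degree of freedom these counts say nothing about stability. The fits that leave out a library hold response alone, 1 library against 2 drawn from both times, so time enters their ratios. Without the responder library after therapy the median fitted response ratio was -0.07, with 53 of 81 members lower, and without the non-responder library before therapy it was -0.07, with 58 of 81 lower. Without the responder library before therapy it was -0.40, and without the non-responder library after therapy -0.39. No paired analysis was possible because each group holds 1 library and the labels tie none to a patient. The counting intervals of single members are narrow, but they cover counting error only. What limits the ratios is the number of libraries, and depth cannot be told apart from RP share.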
